A study of Homo sapiens with 18 samples.

Results

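The genes described here are 10 that are commonly read as markers or regulators of epithelial-mesenchymal transition (EMT): the cadherins CDH1, CDH2 and CDH6, vimentin (VIM), fibronectin (FN1) and the transcription factors SNAI1, SNAI2, ZEB1, ZEB2 and TWIST1. Every probe set that the platform annotation assigns to exactly 1 of these symbols was read, whatever its result, which gave 31 of the 41097 probe sets with 1 symbol and 10 of 19775 genes. The study set prostate cancer lines with altered ONECUT2, a homeobox transcription factor, beside control cells, on 18 Affymetrix U133 Plus 2.0 arrays. There were 6 groups of 3 arrays. The first was 22Rv1 cells, from a prostate carcinoma xenograft, transduced with a lentivirus carrying full-length ONECUT2 cDNA. The second was 22Rv1 cells labelled as carrying an ONECUT2 shRNA, the third 22Rv1 cells labelled as carrying a scramble shRNA, and the fourth 22Rv1 control cells. The fifth was LNCaP cells, from a lymph node metastasis of prostate cancer, with the same overexpression, and the sixth LNCaP control cells. The treatment label of both control groups reads vehicle, and no label states that they carried an empty vector. All lines grew in RPMI-1640 with serum, and the transduced cells were kept as puromycin-selected stable lines. The labels name no clone, no batch and no separate cultures, so the spread that p-values rest on here may be technical.

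In an epithelium, CDH1 (E-cadherin) joins neighbouring cells at adherens junctions, where its cytoplasmic tail binds catenins. In EMT, factors of the Snail, ZEB and Twist families lower CDH1, largely through E-boxes in its promoter in the case of Snail and ZEB factors. Cells then gain CDH2 (N-cadherin), the intermediate filament protein vimentin and matrix proteins such as fibronectin. CDH6 (K-cadherin) is a cadherin of the developing kidney that is also made by some carcinomas.

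The values are log2 signals, and 4 on this scale was used as the floor under which a reading was treated as background. The array medians ran from 3.26 to 3.34, and each array had 38.3% to 40.0% of its probe sets over 4. Arrays of 1 group correlated at 0.996 or more, apart from LNCaP overexpression, whose lowest value was 0.975. Replicate 1 of that group lay closest to the LNCaP controls (mean correlation 0.969, against 0.948 for replicate 2 and 0.953 for replicate 3), so values in LNCaP are also given without it where it matters. In 22Rv1 overexpression the beta-actin control probe sets differed between the 3' and 5' ends by 8.06 ± 0.70, against 4.11 ± 0.41 in 22Rv1 control (SD, n = 3 each). In LNCaP overexpression that gap was 2.85 ± 0.56, against 2.94 ± 0.26 in LNCaP control. The same gap of the GAPDH control probe sets was -0.44 ± 0.13 in 22Rv1 overexpression and -0.70 ± 0.09 in 22Rv1 control. For LNCaP it was -0.68 ± 0.08 in overexpression and -0.68 ± 0.07 in control. ONECUT2 itself, at its brightest probe set, was higher in overexpression than in control by 0.54 ± 0.16 in 22Rv1 (adjusted p = 0.00773) and by 0.66 ± 0.16 in LNCaP (adjusted p = 0.00175). By 207676_at ONECUT2 was at least 1.3-fold higher in 22Rv1 overexpression and at least 6.1-fold higher in LNCaP overexpression (adjusted p = 0.0171 and 3.98e-07). On the LNCaP overexpression arrays that probe set read 5.23, 7.17 and 7.43. By 230271_at the rises were 1.16 and 0.53 (adjusted p = 3.64e-06 and 0.00506). The probe sets did not all agree. In 22Rv1 overexpression 233446_at was lower by 0.97 (-0.97 ± 0.24, adjusted p = 0.00227), and in LNCaP it did not pass (adjusted p = 0.411). Which of the probe sets lie in the transduced cDNA was not examined. ONECUT2 went against the labels in the shRNA groups. It read 8.46, 9.0 and 9.12 on the arrays labelled ONECUT2 shRNA and 6.63, 6.71 and 7.08 on the arrays labelled scramble (difference 2.05 ± 0.16, adjusted p = 1.07e-07). Every direction given below for those arrays follows their labels and carries this discrepancy.

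Of the 31 probe sets, 14 passed the filter of a log2 value over 4 on at least 3 arrays and were tested, and they belong to 7 genes. CDH6 had 5 of 6 probe sets tested and FN1 4 of 7. CDH1, CDH2 and VIM had 1 of 2 each, and SNAI2 and TWIST1 had their only probe set tested. None of the 4 ZEB1 probe sets (1.40 to 3.13) or the 5 ZEB2 probe sets (1.78 to 2.83) read over 4 on any array, so no level was measured for either ZEB gene in either line. The only probe set of SNAI1 ranged from 2.56 to 4.45 and was not tested. The untested probe sets of the other genes stayed between 1.12 and 3.75. A probe set that passed through the group where it is bright had to differ from dim groups, so the counts below describe these probe sets and not all members. Since whole cultures were measured, fewer cells making a transcript and less of it per cell cannot be told apart.

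**Figure D1:**
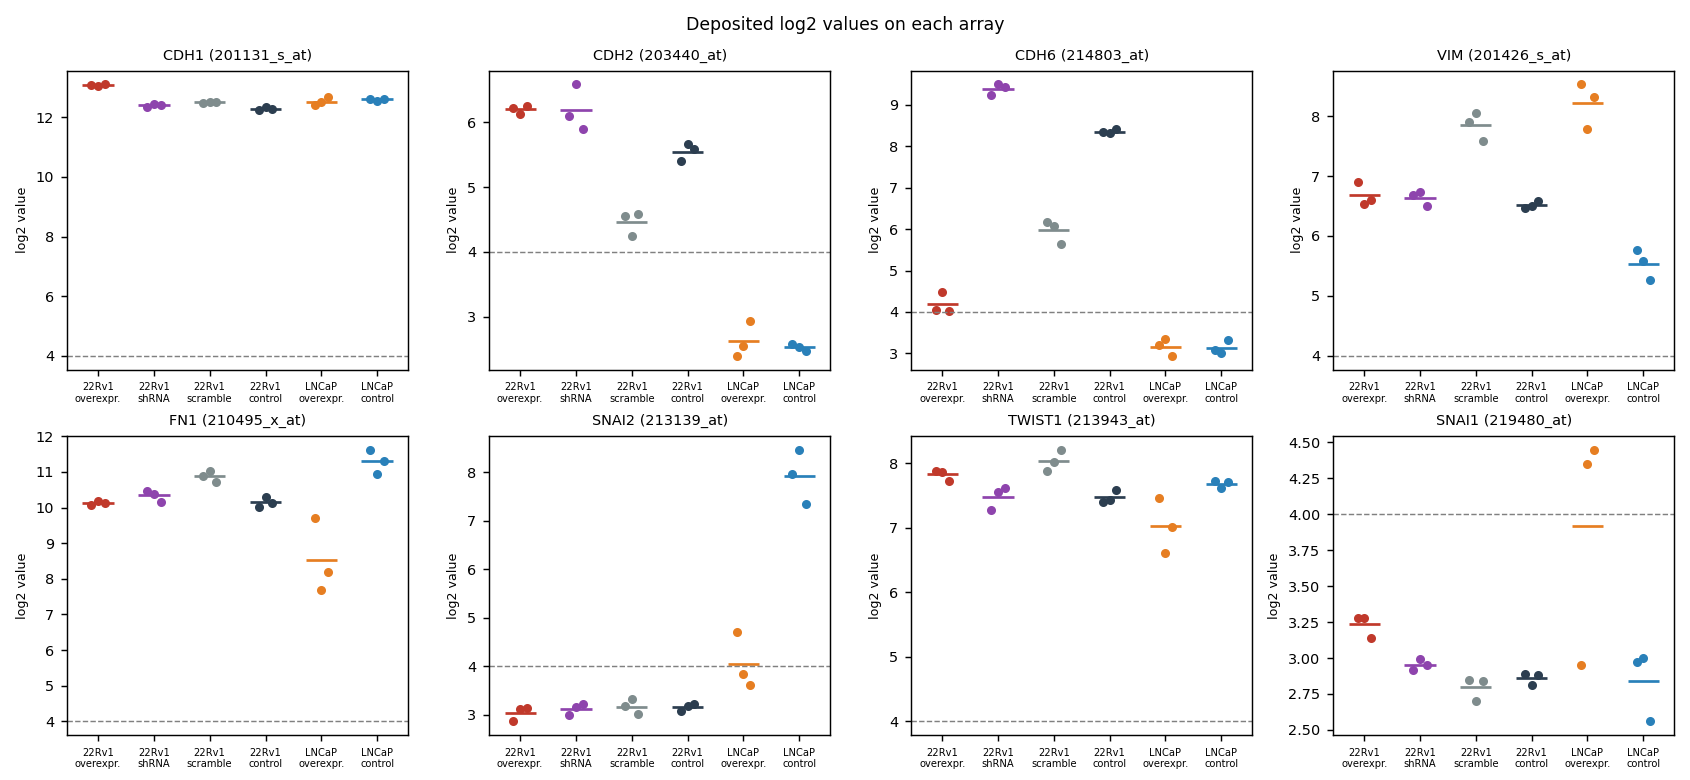
Deposited log2 value on each array (y axis) by group (x axis) for the brightest probe set of each gene over 4 on any array. Points are arrays, bars are means of 3 and the dashed line is the floor at 4. CDH6 fell to near 4 in 22Rv1 overexpression, VIM was at 7.79 or more on the 3 LNCaP overexpression arrays, and SNAI2 was at 7.35 or more on the 3 LNCaP control arrays and under 5 elsewhere.

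E-cadherin was far above the floor everywhere and was highest in 22Rv1 overexpression. CDH1 (probe set 201131_s_at) read 13.08, 13.04 and 13.10 in 22Rv1 overexpression and 12.24, 12.35 and 12.26 in 22Rv1 control. The groups did not overlap, and CDH1 was 1.73-fold higher (log2 difference 0.79 ± 0.06, adjusted p = 2.92e-08). In LNCaP overexpression it read 12.39, 12.49 and 12.67, against 12.61, 12.55 and 12.61 in LNCaP control. Those groups overlapped, and the difference did not pass the test (-0.07 ± 0.06, adjusted p = 0.349). Without LNCaP overexpression replicate 3 it was -0.15, with an adjusted p of 0.0423. CDH1 on the arrays labelled ONECUT2 shRNA read 12.35, 12.44 and 12.42, and on the arrays labelled scramble 12.48, 12.50 and 12.49 (-0.09 ± 0.06, adjusted p = 0.359). From low to high the group means ran 22Rv1 control (12.28), ONECUT2 shRNA (12.40), scramble (12.49), LNCaP overexpression (12.52), LNCaP control (12.59) and 22Rv1 overexpression (13.08). The scramble arrays overlapped with LNCaP overexpression, which in turn overlapped with LNCaP control. In 22Rv1 overexpression 7 of the 14 tested member probe sets were called, all of them from the 3 cadherins, beside 58.1% of all tested probe sets, so the share is near the background. The larger beta-actin gap on the same arrays was measured beside these calls, and its part in them was not tested.

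N-cadherin was measured in 22Rv1 only. CDH2 (203440_at) read 6.22, 6.13 and 6.26 in 22Rv1 overexpression and 5.40, 5.66 and 5.59 in 22Rv1 control. It was 1.57-fold higher there (0.65 ± 0.17, adjusted p = 0.0032), so CDH1 and CDH2 rose on the same arrays. It read 6.10, 6.59 and 5.90 on the arrays labelled ONECUT2 shRNA and 4.56, 4.24 and 4.58 on those labelled scramble. All 3 shRNA arrays lay above all 3 scramble arrays (1.73 ± 0.17, 3.32-fold, adjusted p = 1.59e-06). In LNCaP every array was under 4, with 2.39, 2.55 and 2.93 in overexpression and 2.57, 2.53 and 2.47 in control, so no fold is given. The 22Rv1 overexpression and ONECUT2 shRNA groups were highest, at means of 6.20 and 6.19, and overlapped. 22Rv1 control (5.55) and scramble (4.46) followed without overlap.

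CDH6 had the largest change of the tested members in 22Rv1 overexpression. Its probe set 214803_at read 4.04, 4.48 and 4.03 in 22Rv1 overexpression, against 8.34, 8.31 and 8.40 in 22Rv1 control. It thus fell to just over the floor, an 18-fold fall on the linear scale (-4.17 ± 0.16, adjusted p = 1.17e-11). A second bright probe set, 205532_s_at, read 3.77, 3.48 and 3.89 in overexpression and 8.68, 8.64 and 8.85 in control. All 3 overexpression arrays were under 4, so CDH6 was at least 26.4-fold lower by it (adjusted p = 1.94e-11). The 3 dimmer probe sets also had every overexpression array under 4 and control means of 4.06 to 4.64. They were at least 1.28-fold (205533_s_at), 1.56-fold (210601_at) and 1.04-fold (232631_at) lower, with adjusted p = 1.56e-06, 1.58e-05 and 0.000109.

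The shRNA-labelled arrays stood at the other end for CDH6. Probe set 214803_at read 9.23, 9.49 and 9.43 on the arrays labelled ONECUT2 shRNA and 6.18, 6.08 and 5.65 on those labelled scramble. The groups were far apart, by 3.41 ± 0.16 on the log2 scale (10.6-fold, adjusted p = 4.73e-10). Probe set 205532_s_at read 8.89, 9.28 and 9.21, against 6.13, 6.19 and 5.55 (3.17, 9.01-fold, adjusted p = 1.92e-08). The dimmer sets differed in the same direction, by at least 0.50 (205533_s_at, adjusted p = 6.29e-05), by 0.54 (210601_at, adjusted p = 0.0424) and by at least 0.21 (232631_at, adjusted p = 0.00489). The call of 210601_at was lost in 5 of the 6 fits that left out 1 of these arrays. In LNCaP no CDH6 probe set reached 4 on any array of either group, with a highest reading of 3.75. From low to high, 214803_at averaged 3.14 in LNCaP control, 3.16 in LNCaP overexpression, 4.18 in 22Rv1 overexpression, 5.97 in scramble, 8.35 in 22Rv1 control and 9.38 in ONECUT2 shRNA. Only the LNCaP groups overlapped. The 5 tested CDH6 probe sets correlated with each other at 0.880 to 0.993 over the 18 arrays, which share lines and groups.

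**Figure D2:**
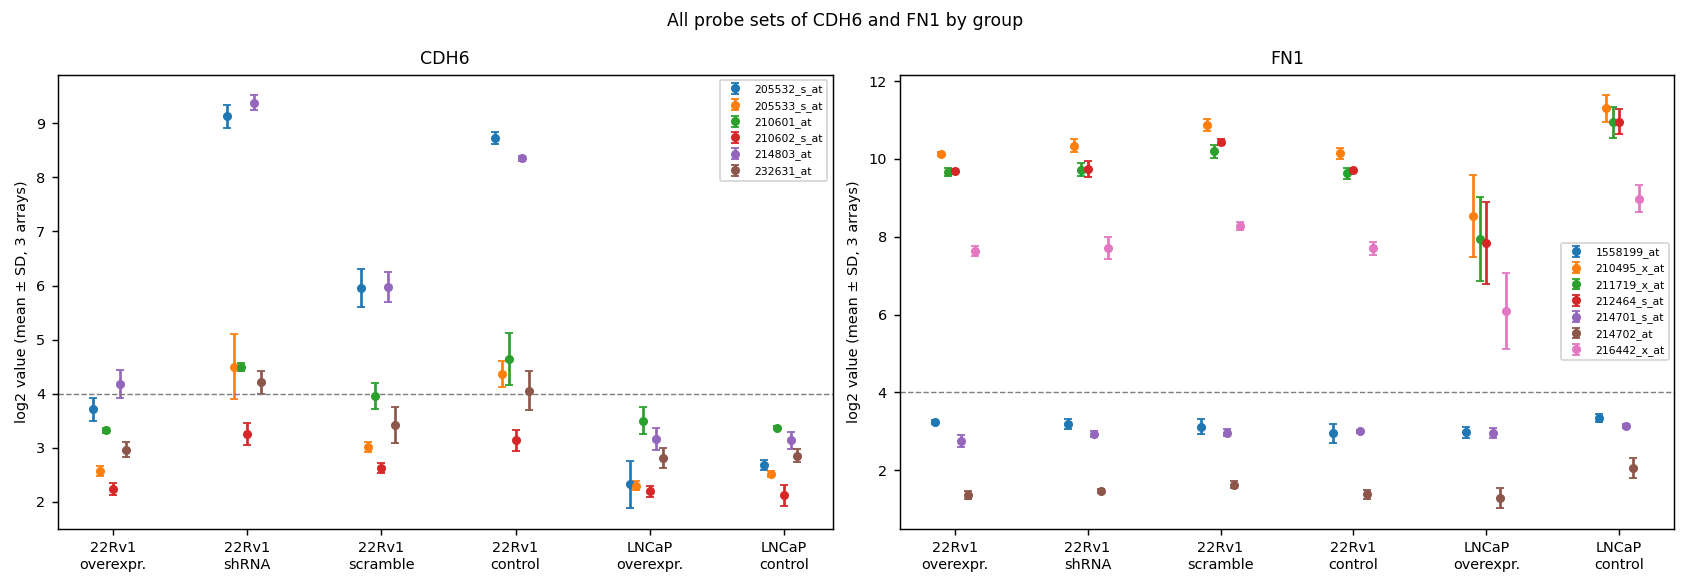
Mean log2 value with SD of 3 arrays (y axis) by group (x axis) for all 6 CDH6 probe sets (left) and all 7 FN1 probe sets (right); the dashed line is the floor at 4. Both bright CDH6 probe sets drop to about 4 in 22Rv1 overexpression, and the 4 bright FN1 probe sets are lowest in LNCaP overexpression, with wide error bars.

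Vimentin rose in LNCaP overexpression. VIM (201426_s_at) read 8.53, 7.79 and 8.31 there, against 5.77, 5.59 and 5.26 in LNCaP control. It was 6.38-fold higher (2.67 ± 0.19, adjusted p = 3.26e-09), and between 2.51 and 2.88 with any 1 of the overexpression arrays left out. In 22Rv1 overexpression it read 6.90, 6.53 and 6.60, against 6.46, 6.50 and 6.59 in control. These overlapped, and the difference of 0.16 ± 0.19 did not pass the test (adjusted p = 0.479). On the arrays labelled ONECUT2 shRNA it read 6.69, 6.73 and 6.50, against 7.90, 8.05 and 7.58 on those labelled scramble, and was 2.30-fold lower (-1.20 ± 0.19, adjusted p = 0.000165). From low to high VIM averaged 5.54 in LNCaP control, 6.52 in 22Rv1 control, 6.64 in ONECUT2 shRNA, 6.68 in 22Rv1 overexpression, 7.84 in scramble and 8.21 in LNCaP overexpression. The 3 middle groups overlapped, as did scramble and LNCaP overexpression.

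Fibronectin went the other way from vimentin in LNCaP. FN1 (210495_x_at) read 9.70, 7.68 and 8.19 in LNCaP overexpression and 11.63, 10.95 and 11.31 in LNCaP control. It was 6.83-fold lower (-2.77 ± 0.33, adjusted p = 2.33e-06). The other bright probe sets fell by 3.00 (211719_x_at), 3.13 (212464_s_at) and 2.88 (216442_x_at), with adjusted p = 1.52e-06, 5.41e-07 and 1.24e-06. Replicate 1 of the overexpression arrays was highest by all 4 FN1 probe sets. Without it the difference of 210495_x_at was -3.36, and without replicate 2 it was -2.35. In 22Rv1 overexpression 210495_x_at read 10.08, 10.19 and 10.13, against 10.01, 10.29 and 10.13 in control. The 4 differences there were between -0.07 and 0.04, with adjusted p-values of 0.872 to 0.985.

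FN1 read 10.47, 10.39 and 10.16 on the arrays labelled ONECUT2 shRNA, against 10.89, 11.03 and 10.72 on those labelled scramble. The groups did not overlap, yet none of the 4 probe sets passed the test (-0.47 to -0.71, adjusted p = 0.126 to 0.350). The standard error of 0.33 pools an SD of 1.05 in LNCaP overexpression with SDs of 0.16 and 0.15 in these groups. A fit of only these 2 groups called all 4 FN1 probe sets, with adjusted p of 0.0014 to 0.0153. The 4 probe sets correlated at 0.984 to 0.994 over the 18 arrays. From low to high 210495_x_at averaged 8.52 in LNCaP overexpression, 10.13 in 22Rv1 overexpression, 10.14 in 22Rv1 control, 10.34 in ONECUT2 shRNA, 10.88 in scramble and 11.30 in LNCaP control. The first step and the step up to scramble were free of overlap.

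The promoter table from RefSeq (GRCh38.p14) holds windows of 250 bases before to 50 bases after a transcription start. Windows were read for 5 of the 10 members, VIM, FN1, CDH2, ZEB1 and ZEB2, with 12 windows in all. Member windows were not read on every chromosome, so the table may hold windows of other members. Those of FN1 and VIM are shown because these genes moved in opposite directions in LNCaP overexpression. A window of CDH2 is shown because this gene differed in both 22Rv1 comparisons, and another CDH2 window is only described. Capitals mark a cyclic AMP response element, TGACGTCA, and TATA elements, TATAA or its reverse complement TTATA. The windows shown lie at chr2:215436019-215436318 on the minus strand for FN1, chr10:17227991-17228290 on the plus strand for VIM and chr18:28177081-28177380 on the minus strand for CDH2.
FN1: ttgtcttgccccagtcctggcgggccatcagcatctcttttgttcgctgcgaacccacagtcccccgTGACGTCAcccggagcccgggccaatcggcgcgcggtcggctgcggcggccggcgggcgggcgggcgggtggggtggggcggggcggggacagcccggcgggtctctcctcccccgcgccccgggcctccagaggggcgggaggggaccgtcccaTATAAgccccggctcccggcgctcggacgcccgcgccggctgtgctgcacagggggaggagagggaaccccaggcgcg
VIM: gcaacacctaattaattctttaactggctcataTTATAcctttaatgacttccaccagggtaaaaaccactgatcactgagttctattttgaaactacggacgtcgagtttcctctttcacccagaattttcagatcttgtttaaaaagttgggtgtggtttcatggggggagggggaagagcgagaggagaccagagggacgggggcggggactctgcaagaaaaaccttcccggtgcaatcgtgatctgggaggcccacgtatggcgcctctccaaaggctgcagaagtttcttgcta
CDH2: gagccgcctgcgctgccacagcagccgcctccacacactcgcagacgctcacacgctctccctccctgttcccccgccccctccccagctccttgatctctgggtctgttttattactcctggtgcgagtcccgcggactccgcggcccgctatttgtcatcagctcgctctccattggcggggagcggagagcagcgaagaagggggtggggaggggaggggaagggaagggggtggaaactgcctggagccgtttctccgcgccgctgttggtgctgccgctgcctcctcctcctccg
Motifs were searched on both strands. The E-box bound by Snail and ZEB factors, CAGGTG or its reverse complement CACCTG, was in none of these 3 windows, and 20.6% of the 35116 promoters in the table hold it. The same was true of the ONECUT core ATCAAT or its reverse complement ATTGAT, which 6.26% of promoters hold. The general E-box CANNTG, which overlaps the first motif and is its own reverse complement, is in 68.7% of promoters and in none of these 3. In FN1 the response element began at base -183 from the start and the TATA element at base -28, motifs held by 1.85% and 20.4% of promoters. In VIM the TATA letters stood at base -217. The CDH2 window that is not shown, at chr18:28036592-28036891 on the minus strand, held overlapping TATA letters at bases -33 and -32. It also held 1 general E-box, but neither the Snail and ZEB E-box nor the ONECUT core. One ZEB1 window held the ONECUT core at base 1, and 2 of its 7 windows held the Snail and ZEB E-box. A match of letters is a description and not a binding site.

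Of the transcription factors, SNAI2 (Slug), a Snail family repressor, was measured in LNCaP alone. It read 4.71, 3.85 and 3.62 in LNCaP overexpression and 7.97, 8.47 and 7.35 in LNCaP control. SNAI2 was thus close to the floor in overexpression, with a fitted fall of 14.6-fold (-3.87 ± 0.25, adjusted p = 1.73e-09). Overexpression replicate 1 was the only 1 of the 3 over 4, and without it both remaining arrays were under 4, so that SNAI2 was lower by at least 3.93. All 12 arrays of 22Rv1 were under 4, between 2.87 and 3.33. SNAI1 (Snail) read 2.95, 4.35 and 4.45 in LNCaP overexpression and 2.97, 3.00 and 2.56 in LNCaP control. Replicates 2 and 3 were thus the only arrays of the series over 4 for it, and it had no test.

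TWIST1, a basic helix-loop-helix factor, was over the floor on every array and moved little. It read 7.46, 6.60 and 7.01 in LNCaP overexpression, against 7.73, 7.61 and 7.70 in LNCaP control. It was 1.58-fold lower (-0.66 ± 0.17, adjusted p = 0.00336), although a fit of the LNCaP arrays alone did not call it (adjusted p = 0.0633). Without overexpression replicate 1 the difference was -0.88 and without replicate 2 it was -0.45. In 22Rv1 overexpression TWIST1 read 7.88, 7.86 and 7.73, against 7.40, 7.43 and 7.59 in control. These groups did not overlap, and the difference of 0.35 ± 0.17 did not pass the test (adjusted p = 0.0888). A fit of these 2 groups alone did call it (adjusted p = 0.00869). On the arrays labelled ONECUT2 shRNA it read 7.27, 7.55 and 7.61, against 7.88, 8.01 and 8.21 on those labelled scramble (-0.56, adjusted p = 0.0231), a call that was lost without shRNA replicate 1 (adjusted p = 0.1) or scramble replicate 3 (adjusted p = 0.095). Low to high, the group means were 7.02 in LNCaP overexpression, 7.47 in 22Rv1 control, 7.48 in ONECUT2 shRNA, 7.68 in LNCaP control, 7.82 in 22Rv1 overexpression and 8.03 in scramble. The lowest 3 overlapped with their neighbours.

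In LNCaP overexpression 7 of 14 tested member probe sets were called (VIM higher, and 4 of FN1, SNAI2 and TWIST1 lower), beside 59% of all probe sets. Between the arrays labelled ONECUT2 shRNA and scramble it was 8 of 14, beside 27%. Of those 8, 5 were probe sets of CDH6 that varied together, and the calls cover 4 of the 7 tested genes. The median difference of the 14 was -0.05 in 22Rv1 overexpression, -0.28 in LNCaP overexpression and -0.07 between the shRNA groups. Over all tested probe sets these medians were 0.02, 0.01 and -0.04. In the main fit none of the 3 comparisons called CDH1 lower, or both CDH2 and VIM higher. Without LNCaP overexpression replicate 3, CDH1 was called lower in LNCaP (-0.15, adjusted p = 0.0423). In LNCaP, where VIM rose, CDH2 was under 4 on every array, so changes of CDH2 below the floor could not be seen.

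**Figure D3:**
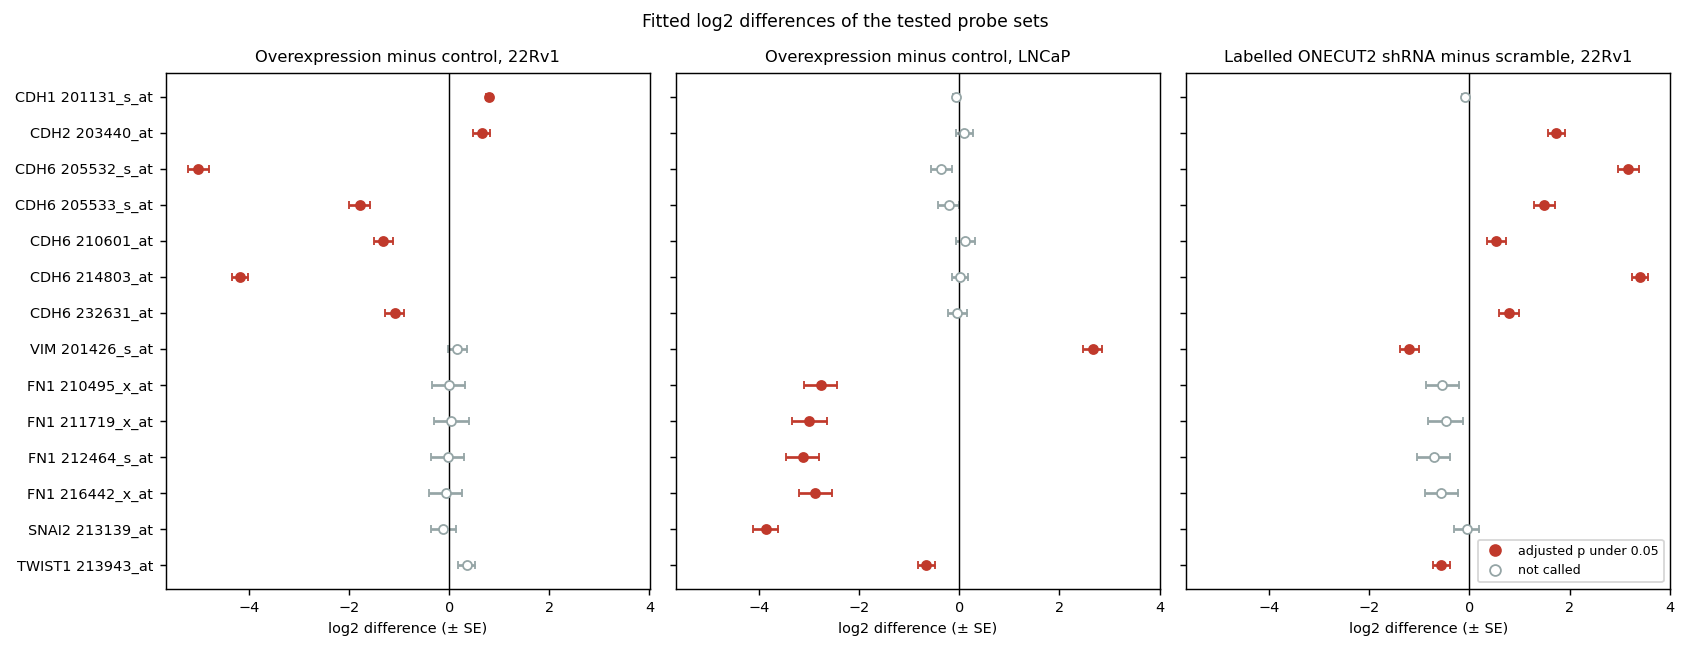
Fitted log2 difference with standard error (x axis) of the 14 tested probe sets (y axis) in 3 comparisons, filled where the adjusted p was under 0.05. Open points of CDH2, CDH6 and SNAI2 include pairs of groups that were both under 4, for which no fold is given. The filled points are CDH1, CDH2 and CDH6 in 22Rv1 overexpression, VIM, FN1, SNAI2 and TWIST1 in LNCaP overexpression, and CDH2, CDH6, VIM and TWIST1 between the shRNA groups.

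The effect of overexpression itself was compared between lines by an interaction term, which subtracts the 22Rv1 effect from the LNCaP effect. It called 13 of the 14 probe sets, from 6 of the 7 tested genes, beside 42.1% of all. VIM differed by 2.51 ± 0.26 (adjusted p = 1.66e-06) and CDH1 by -0.86 ± 0.09 (adjusted p = 1.92e-06). The 4 probe sets of FN1 differed by -2.76 to -3.10 and TWIST1 by -1.01 (adjusted p = 0.00316). The other 6 calls, of the 5 CDH6 probe sets and SNAI2, carry no size of a difference. CDH6 was under 4 on every LNCaP array and SNAI2 on every 22Rv1 array, so a fall could not be seen there, and these probe sets passed the filter through the line that had a level. CDH2, under 4 in LNCaP too, was the exception, with a fitted -0.55 ± 0.24 (adjusted p = 0.0723). It was called in the fit of the 4 groups alone (adjusted p = 0.0464) and without LNCaP overexpression replicate 3 (-0.71, adjusted p = 0.0244). Since both LNCaP groups were under 4, these CDH2 values likewise carry no size of a difference between the lines.

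The lines also differed without overexpression. Between LNCaP control and 22Rv1 control 13 of 14 member probe sets, from 6 of the 7 tested genes, were called, beside 64% of all. The probe sets of CDH6, CDH2 and SNAI2 passed the filter through 1 line and were under 4 on every control array of the other. The filter thus favoured their calls, and these shares are not like for like. SNAI2 was at least 15.3-fold higher in LNCaP control (adjusted p = 7.95e-11) and FN1 was higher by 1.15 to 1.31 over its 4 probe sets (adjusted p = 0.0026 to 0.00605). CDH1 was higher by 0.30 (adjusted p = 0.000578). In LNCaP control CDH6 was at least 26.4-fold lower by 205532_s_at and at least 20.4-fold lower by 214803_at. CDH2 was at least 2.93-fold lower (adjusted p = 1.35e-10), and VIM was lower by 0.98 on the log2 scale (-0.98 ± 0.19, adjusted p = 0.000206). TWIST1 did not pass (0.21, adjusted p = 0.305).

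The scramble and control groups of 22Rv1 were not alike for these genes. Between scramble and 22Rv1 control 9 of 14 member probe sets, from 5 of the 7 tested genes, were called, beside 22.1% of all. CDH6 was lower in scramble by 2.38 for 214803_at (-2.38 ± 0.16, adjusted p = 5.12e-08) and all 5 of its probe sets were called, of which 210601_at and 232631_at lost the call in some fits without 1 array. CDH2 was 2.12-fold lower (adjusted p = 0.000214) and VIM 2.51-fold higher (1.33 ± 0.19, adjusted p = 8e-05). TWIST1 was higher by 0.56 (adjusted p = 0.0262) and CDH1 by 0.20 (adjusted p = 0.0312), both of which were lost in some fits without 1 array. ONECUT2 was lower in scramble by 1.41 (-1.41 ± 0.16, adjusted p = 9.61e-06). Without control replicate 1, or without scramble replicate 3, only 5 of the 14 were called.

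Between the arrays labelled ONECUT2 shRNA and 22Rv1 control 2 of 14 member probe sets were called, beside 5.22% of all. ONECUT2 itself went against the label here too. It was higher on the arrays labelled ONECUT2 shRNA by 0.65 ± 0.16 at 239911_at (adjusted p = 0.024) and by 1.37 at 230271_at (adjusted p = 5.21e-05). Probe set 233446_at did not pass (0.01, adjusted p = 0.988), and 207676_at was under 4 in both groups. CDH6 by 214803_at was 2.05-fold higher (1.03 ± 0.16, adjusted p = 0.00167), and 205532_s_at, at 0.41, did not pass (adjusted p = 0.318). The other CDH6 probe sets did not pass either, at 0.14 (205533_s_at), -0.14 (210601_at) and 0.15 (232631_at), with adjusted p of 0.744 to 0.796. CDH2 was 1.56-fold higher (0.64 ± 0.17, adjusted p = 0.0343), a call lost without shRNA replicate 2 (0.45, adjusted p = 0.192) or without any 1 of the control arrays. These comparisons share the 22Rv1 control arrays with the overexpression comparison, so their values stand side by side only. For 214803_at they were -4.17 in overexpression, 1.03 in ONECUT2 shRNA and -2.38 in scramble, each minus 22Rv1 control.

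Related genes were read at 1 probe set a gene, against which 36.3% of all tested genes were called higher and 24.1% lower in 22Rv1 overexpression. In LNCaP overexpression 33.9% were higher and 27.8% lower, and between the shRNA groups 13.1% and 15.6%. Of 11 tested cadherins and catenins other than the members 3 were higher and 4 lower in 22Rv1 overexpression (median -0.03, against 0.10 over all genes). CDH3 (P-cadherin), a classical cadherin of basal epithelium, averaged 10.08 ± 0.05 in 22Rv1 overexpression and 7.95 ± 0.07 in control (SD, n = 3 each) and was 4.38-fold higher. CDH24 rose by 1.05. CDH17, an intestinal cadherin, was at least 1.77-fold lower, and the call of CDH26 (adjusted p = 0.0476) was lost without any 1 array. In LNCaP overexpression 3 were higher and 1 lower, with CDH3 at least 7.34-fold higher (adjusted p = 1.3e-08), CDH24 at least 1.30-fold higher and the catenin CTNNA2 at least 1.12-fold lower. Without overexpression replicate 1, 2 were lower, as without replicate 3. CDH3 was thus higher with overexpression in both lines. Between the shRNA groups 3 were higher on the arrays labelled ONECUT2 shRNA, among them CDH17 (at least 2.22-fold) and CDH10 (0.97), and 1 lower, JUP, which encodes plakoglobin (-1.13, adjusted p = 0.000163).

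Regulators of the epithelial state, such as the ESRP splicing factors and the grainyhead, OVOL and epithelial Ets factors, counted 6 higher and 1 lower of 8 in 22Rv1 overexpression (median 0.50, against 0.10 over all genes). ELF3 rose 2.87-fold and GRHL3 at least 1.42-fold, while EHF was 3.99-fold lower (-2.0 ± 0.15, adjusted p = 1.02e-08). In LNCaP overexpression 3 were higher and 3 lower (median 0.02): OVOL1 (1.29) and GRHL3 (at least 0.84) rose, and OVOL2 (-0.87) and EHF (-0.85) fell. On the arrays labelled ONECUT2 shRNA limma called 0 higher and 3 lower, and at an unadjusted p under 0.05 it was 1 higher and 4 lower. GRHL2 fell by 1.02 and EHF by 0.79 there.

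Junction genes of epithelia counted 10 higher and 5 lower of 22 in 22Rv1 overexpression (median 0.26), and 11 higher and 5 lower in LNCaP overexpression (median 0.24), against 0.10 and 0.09 over all genes. Without LNCaP overexpression replicate 1, 9 were lower. OCLN, which encodes the tight junction protein occludin, rose 3.69-fold in 22Rv1 overexpression and 2.79-fold in LNCaP overexpression (adjusted p = 4.42e-09 and 6.32e-08). PPL, periplakin of desmosomes, rose at least 2.11-fold and 2.90-fold. The largest falls in 22Rv1 overexpression were those of CLDN4, a claudin, by 1.5 and PKP2, a plakophilin, by 1.12. In LNCaP overexpression they were those of TJP1, which encodes ZO-1, by 1.44 and PKP3, another plakophilin, by 1.29. The PKP2 call was lost without 22Rv1 control replicate 1 (adjusted p = 0.0527). Between the shRNA groups 2 were higher (DSG2 by 0.58, EPCAM by 0.36) and 6 lower, led by CLDN4 (-1.46) and RAB25 (at least 1.38-fold lower). The DSG2 call was lost in 5 of 6 fits without 1 array.

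Other transcription factors linked to EMT counted 0 higher and 4 lower of 6 in 22Rv1 overexpression (median -0.86), and at an unadjusted p under 0.05 in limma 0 higher and 5 lower. ID1, an inhibitor of basic helix-loop-helix factors, was 3.22-fold lower (-1.69 ± 0.17, adjusted p = 3.07e-07) and SOX4 2.30-fold lower. In LNCaP overexpression 2 were higher and 0 lower (median 0.45), with ID1 4.06-fold (2.02 ± 0.17, adjusted p = 3.37e-08) and SOX9 3.44-fold higher. Without overexpression replicate 1 these counts were 3 and 1, and at an unadjusted p under 0.05 they were 3 and 0. TCF4 (0.94) and SOX4 (0.66) were higher on the arrays labelled ONECUT2 shRNA, and ID1 was lower (-1.01). SOX4 lost its call without any 1 array.

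Mesenchymal genes went both ways. In 22Rv1 overexpression 5 of 18 were higher and 6 lower (median -0.15). ITGA5, an integrin subunit of the fibronectin receptor, rose 6.49-fold and MSN, which encodes moesin, 5.94-fold, while the matrix genes TNC and VCAN fell by 1.92 and 1.11. In LNCaP overexpression 6 were higher and 3 lower (median 0.09): MMP9, a gelatinase, rose 4.28-fold and ITGA5 at least 3.35-fold, CALD1 (caldesmon) fell by 1.19 and S100A4 was at least 1.28-fold lower. ITGA5 thus rose with overexpression in LNCaP, where FN1 fell, and in 22Rv1, where FN1 did not pass the test. On the arrays labelled ONECUT2 shRNA 6 were higher, led by TNC (2.19) and MSN (1.98), and 3 lower, with ACTA2 at least 1.20-fold lower and TPM1 lower by 0.45 (-0.45 ± 0.06, adjusted p = 7.22e-05).

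**Figure D4:**
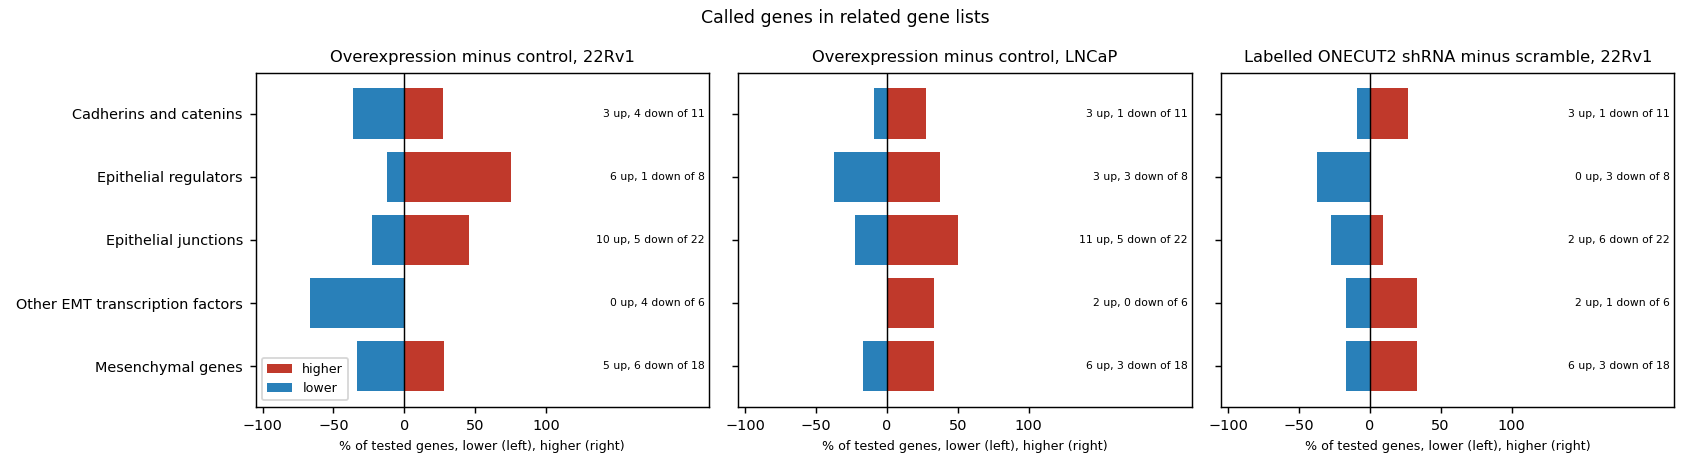
Share of the tested genes of 5 lists (y axis) called higher (right, red) or lower (left, blue) in 3 comparisons, in percent of the genes tested (x axis), with the counts printed at the right of each panel. Epithelial regulators were called higher for 6 of 8 genes in 22Rv1 overexpression, and mesenchymal genes were called in both directions in every panel.

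Vimentin, fibronectin and several mesenchymal genes are also made by stromal cells, so markers of other cell types were read on the same arrays. Of 8 stromal markers 3 were tested, and 1 was called higher and 2 lower in overexpression in each line, although the 2 called lower in LNCaP, COL3A1 and LUM, read under 4 in both groups. Their summed log2 level was 9.81 to 9.90 in 22Rv1 overexpression, against 8.21 to 8.37 in 22Rv1 control. In LNCaP overexpression it was 10.64 to 12.02, against 7.83 to 8.40 in LNCaP control, the pair of groups in which VIM rose and FN1 fell. COL1A1, a collagen chain, made most of this, at a mean of 9.76 in 22Rv1 overexpression against 7.64 in control and of 11.44 in LNCaP overexpression against 7.81 in control. COL1A2, PDGFRA and PDGFRB were under 4 on every array of the series. THY1 was over 4 on 1 array of the series, in LNCaP overexpression (3.66 to 4.12, against 3.31 to 3.55 in LNCaP control), and was not tested. COL3A1, DCN and LUM were under 4 on every overexpression array of both lines, and in 22Rv1 overexpression LUM was at least 3.14-fold and COL3A1 at least 1.29-fold lower than in control. On the arrays labelled ONECUT2 shRNA the sum was 8.05 to 8.52, against 8.72 to 9.02 on those labelled scramble. LUM averaged 4.04 in the shRNA group and 7.37 in scramble. The part of stromal markers in the VIM and FN1 differences was not tested. The 6 leukocyte and endothelial markers on the platform were under 4 on every array, apart from VWF in LNCaP control. Of the luminal prostate markers, FOXA1, HOXB13, KLK2 and KLK3 were over 4 on every control array of both lines, and TMPRSS2 was under 4 on all 22Rv1 arrays. In overexpression 3 of these 5 were lower in 22Rv1 and 4 in LNCaP, and limma called 0 higher in either line, also at an unadjusted p under 0.05. KLK2 and KLK3, kallikreins of luminal secretion, were lower in 22Rv1 overexpression, at -3.53 and -3.02 (adjusted p = 2.18e-05 and 0.00109), and in LNCaP overexpression, at -6.94 and -6.68 (adjusted p = 1.02e-08 and 4.43e-07). Without LNCaP overexpression replicate 1 the KLK2 and KLK3 differences were -7.94 and -7.96, and without replicate 2 that of KLK3 was -5.93. Between the shRNA groups KLK3 was 21.2-fold lower (-4.41 ± 0.67, adjusted p = 0.000172) and HOXB13 higher by 0.94 (adjusted p = 0.000592) on the arrays labelled ONECUT2 shRNA, where the summed level was 12.21 to 12.34, against 12.60 to 12.71 on those labelled scramble. The summed luminal level was 10.69 to 11.02 in 22Rv1 overexpression, against 12.48 to 12.54 in control, and 9.85 to 11.59 in LNCaP overexpression, against 14.11 to 14.15 in control.

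A last description gives the genes whose pattern over the 18 arrays was most like that of each member, among 12159 genes. The arrays share lines and groups, so these Pearson correlations mostly follow group means. SNAI2 was closest to LINC01133 (0.992), TMPRSS2 (0.989) and UAP1 (0.987), and CDH2 to WT1 (0.981), PLEKHO1 (0.981) and PAX5 (0.979). CDH6 was closest to ASB9 (0.978), ABCG5 (0.974) and CHL1 (0.972), and FN1 to CDK19 (0.973), CPNE3 (0.958) and ACP6 (0.951). For CDH1 the list began with TRIM46 (0.969), PHF12 (0.965) and SDE2 (0.947). The likeness was lower for TWIST1, with DKFZP586I1420 (0.938), REV1 (0.928) and TRPS1 (0.921), and for VIM, with STRADA (0.937), ZDHHC4 (0.918) and PINK1 (0.913).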

How the data were processed

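RNA of 18 samples was hybridised to 1-colour Affymetrix U133 Plus 2.0 arrays after RNeasy extraction and 3' IVT Express labelling, per the labels' protocols. The deposited values are log2 signals that the authors made with GCRMA, per the submitters' processing notes. Neither the version of GCRMA nor whether the 18 arrays went through it as 1 set is stated in the sources used here. GCRMA corrects background by probe sequence and summarises probe sets, so values under about 4 have little meaning in order or size. Of 54675 probe sets, 41097 mapped to 1 symbol in the platform's gene table, 1801 to several and 11721 to none, and 62 were controls, of which 6 map to ACTB or GAPDH and are counted among the 41097.

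Single-symbol probe sets over log2 4 on at least 3 arrays were tested (21233; 12159 genes). A means model of the 6 groups with 12 residual degrees of freedom was fitted with limma 3.58.1 in R 4.3.3 (trend and robust moderation), with Benjamini-Hochberg adjustment over all tested probe sets within a comparison and calls at an adjusted p under 0.05. Errors of differences are standard errors of this fit. Where every array of the lower group was under 4, "at least" gives the higher group's mean minus 4. The fit was tested on simulated data. At gene level each gene is read at its brightest probe set (mean of the 18 arrays).

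All member probe sets are named. Of each list, the 2 called genes with the largest rise and the 2 with the largest fall per comparison are named. The members and lists were chosen with earlier results of these data known. Alternatives were 2 rescalings of the arrays, other filters, 1 probe set a gene, only the groups compared, plain moderation, the replicate number as a block and leaving out each array. List counts under rescaling and without LNCaP overexpression replicates 1 and 3 were added after seeing the data.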

Additional observations from a re-analysis of the deposited data

Results flagged for a closer look

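The interaction term (LNCaP effect minus 22Rv1 effect, in log2) was called for 13 of the 14 tested member probe sets, beside 42.1% of all. The calls include CDH6 and SNAI2, which were under 4 in both groups of 1 line, where a fall could not be seen. Their calls therefore do not show that the effect differed. In the cadherins the interaction was -0.86 for CDH1, and 4.65 (205532_s_at), 1.58 (205533_s_at), 1.44 (210601_at), 4.19 (214803_at) and 1.05 (232631_at) for CDH6. These CDH6 values are fitted differences with both LNCaP groups under 4, and for all but 214803_at with 22Rv1 overexpression under 4 as well, so they give no size of a difference between the lines. CDH6 passed the filter through 22Rv1, and its 3 dim probe sets were lower in 22Rv1 overexpression by at least 0.36 (205533_s_at), 0.64 (210601_at) and 0.06 (232631_at). VIM gave 2.51. FN1 gave -2.76 (210495_x_at), -3.03 (211719_x_at), -3.10 (212464_s_at) and -2.81 (216442_x_at), between -2.34 and -3.69 with any 1 of the LNCaP overexpression arrays left out. SNAI2 gave -3.75, likewise with no size, since both 22Rv1 groups were under 4, and TWIST1 gave -1.01. Groups of 3 arrays were not tested for outlying arrays.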

How the results depend on the processing

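Of 59 called member values, 51 stayed called in the same direction under every alternative run, 8 lost the call under some and 0 reversed. The 8 were CDH1, TWIST1 and 2 dim CDH6 probe sets between scramble and control, CDH2 between ONECUT2 shRNA and control, TWIST1 and CDH6 210601_at between the shRNA groups, and TWIST1 in LNCaP overexpression. Of 29 uncalled values 12 were called under some alternative.

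In the order 22Rv1 overexpression, LNCaP overexpression, ONECUT2 shRNA minus scramble, ONECUT2 shRNA minus control, scramble minus control, the lines' controls and the interaction, the 7, 7, 8, 2, 9, 13 and 13 members called became 3, 4, 4, 2, 5, 6 and 6 with 1 probe set a gene, where only 7 members are tested. All probe sets called became 7393, 7557, 3592, 542, 2659, 7737 and 5434, by construction. A filter at log2 5 called 4 members in 22Rv1 overexpression and 5 between the shRNA groups. Fits of only the groups compared called 3118 probe sets for ONECUT2 shRNA minus control (1108 in the main model) and 7396 for scramble minus control (4691), and the cause was not tested.

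Leaving out each array in turn gave 7, 7 to 8, 6 to 8, 1 to 2, 5 to 8, 13 and 13 to 14 members called. Over all probe sets the ranges were 11039 to 11205, 11253 to 14733, 4216 to 4833, 408 to 1172, 3290 to 3958, 12512 to 12648 and 7916 to 12341. ONECUT2 shRNA minus control gave 408 and 555 without shRNA replicate 2 and 3, and 644, 667 and 446 without control replicate 1, 2 and 3.

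Values that changed sign were all uncalled. Quantile normalization again gave 0.01 for CDH1 in LNCaP overexpression and 0.01 for FN1 210495_x_at in 22Rv1 overexpression. With 1 array left out, FN1 in 22Rv1 overexpression ranged from -0.07 to 0.06 (210495_x_at), -0.03 to 0.11 (211719_x_at) and -0.04 to 0.01 (212464_s_at). In ONECUT2 shRNA minus control the ranges were -0.16 to 0.43 (CDH6 205533_s_at), -0.04 to 0.33 (CDH6 232631_at), -0.03 to 0.15 (FN1 212464_s_at), -0.09 to 0.17 (FN1 216442_x_at) and -0.06 to 0.11 (TWIST1).

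Same-numbered arrays of the groups compared mostly shared little of their deviations (correlations from -0.14 to 0.40, in no comparison all over 0.1). The main fit therefore did not pair arrays by number, although these correlations cannot exclude a pairing. With the replicate block 1 member, not 2, was called in ONECUT2 shRNA minus control, and the other member counts stayed at 7, 7, 8, 9, 13 and 13. The number of arrays limits the precision, and signals near 4 limit what can be said of SNAI1, ZEB1, ZEB2 and, in LNCaP, CDH2 and CDH6.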
